A study of Mus musculus with 1049 samples.

Results

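The 5 genes described here encode chains of collagen VI in the mouse: Col6a1, Col6a2, Col6a3, Col6a5 and Col6a6. They were taken by symbol from 51777 gene entries shared by all plate tables, whatever their level. Of the 5, 4 had a read in at least 1 cell. The cells were dermal fibroblasts of C57Bl/6 mice, with no transgene or treatment named in the labels. They came from newborn mice of 1.5 or 2.5 days, young mice of 2 months and old mice of 18 months. Skin was shaved, subdermis and growing-hair patches were removed, and collagenase-digested cells were stained for CD45, CD117, EpCam, CD31, CD34 and Pdgfra before single cells were sorted into plate wells. Libraries were made with Smart-seq2, which copies polyadenylated RNA over its full length and carries no molecular identifiers. Each age was collected in experiments 1 and 2, and the labels name no individual mice.

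Collagen VI is a non-fibrillar collagen that forms beaded microfilaments around cells and between the thick collagen fibres of skin, muscle and other connective tissues. Its basic unit is a short triple helix with globular von Willebrand factor A domains at both ends. The alpha1 and alpha2 chains, encoded by Col6a1 and Col6a2, join an alpha3 chain encoded by Col6a3. The chains encoded by Col6a5 and Col6a6 resemble alpha3 and can take its place in some tissues. Units pair and pair again inside the cell before they are secreted and joined end to end.

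Positions are from GENCODE M21 on GRCm38, the build named in the submitters' processing notes. Col6a1 (ENSMUSG00000001119) lies on the minus strand of chromosome 10 at chr10:76708792-76726168 and Col6a2 next to it on the same strand at chr10:76595762-76623630, with a gap of 85162 bp. Only 1 annotated gene lay wholly in that gap, the long non-coding RNA gene Gm35608, and it had 0 reads in the kept cells. Col6a3 lies on chromosome 1 at chr1:90765923-90843971, Col6a5 on chromosome 9 at chr9:105856078-105960643 and Col6a6 beside it at chr9:105687809-105828160, all on the minus strand. The non-coding gene model Gm36970 overlaps Col6a3 on the same strand without touching its exons and held 1586 reads. Gm38314 overlaps an exon of Col6a6 on the other strand and held 0 reads. Whether counting used strand is not given in the sources used here.

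The promoter windows of the 3 most read chains are shown because those chains differed between ages in the same direction. They come from RefSeq on GRCm38.p6, read 5′ to 3′ on the minus strand, and all but 1 stop before both the RefSeq and the GENCODE start. The exception is the short stretch around the TGANTCA match of Col6a1, which lies before the RefSeq start and past the GENCODE start. Windows of 300 bases (250 before the RefSeq start, 50 after) were searched on both strands for GGGCGG (the GC box bound by Sp1), CCAAT (bound by NF-Y), the TATA box TATAAA, the AP-1 motif TGANTCA and GGAATG (bound by TEAD factors). Capitals mark a match.
Col6a1, chr10:76726169-76726294: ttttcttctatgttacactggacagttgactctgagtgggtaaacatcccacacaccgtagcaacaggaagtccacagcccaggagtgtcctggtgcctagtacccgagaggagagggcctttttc
Col6a1, around the TGANTCA match, chr10:76726117-76726145: tgctgatgctgTGACTCActcagctttga
Col6a2, chr10:76623631-76623880: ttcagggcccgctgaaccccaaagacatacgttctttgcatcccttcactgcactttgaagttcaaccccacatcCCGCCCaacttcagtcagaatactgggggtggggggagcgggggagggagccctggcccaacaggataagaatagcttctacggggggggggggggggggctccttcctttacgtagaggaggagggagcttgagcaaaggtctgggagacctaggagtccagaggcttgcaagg
Col6a3, chr1:90843972-90844221: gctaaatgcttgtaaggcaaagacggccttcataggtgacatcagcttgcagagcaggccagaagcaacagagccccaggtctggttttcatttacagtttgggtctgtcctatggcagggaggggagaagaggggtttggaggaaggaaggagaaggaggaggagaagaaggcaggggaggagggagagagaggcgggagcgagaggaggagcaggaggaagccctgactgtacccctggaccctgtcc
The window of Col6a1 held 1 TGANTCA match, 90 bases before its RefSeq start and inside the first exon as GENCODE draws it. TGANTCA was in 7.81% of the 32851 promoter windows in the table. The window of Col6a2 held 1 GGGCGG match on the other strand, 175 bases before the start, and GGGCGG was in 35.7% of all windows. A window at another RefSeq start of Col6a2, 226 bp away, held 3 GGGCGG matches and 1 GGAATG match (14.7% of all windows), and 2 of the 3 GGGCGG matches share bases. The window of Col6a3 held none of the 5 motifs. None of these letters was shared by the windows of all 3 genes, which is a description of the windows and says nothing of the factors.

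After filtering, 735 cells remained, 249 newborn, 246 young and 240 old, with 246349 to 4331293 reads on genes per cell. Cells are not independent replicates, so reads were added over the cells of each age and experiment. The 6 sums held 119682449 to 195324769 reads, with n = 2 at each age. Levels are given as CPM, reads scaled to the TMM-adjusted library size. The p-values measure only the spread between experiments, which may be technical. The fibroblast genes Dcn, Lum, Col1a1, Col1a2, Pdgfra and Pdgfrb were read in all 6 sums. Lists of markers of other lineages were mixed. Ptprc, Cd3e, Cpa3, Cdh5, Rgs5, Sox10 and Adipoq had 0 CPM in all 6 sums, while other listed genes had reads. Of the epithelial genes, Krt5 was at 5.11 CPM in newborn and Krt14 at 11.1 in old cells of experiment 1. The melanocyte gene Dct was at 4.47 and 7.36 CPM and the adipocyte gene Plin1 at 2.55 and 0.351 in newborn sums. Summed immune markers (6 genes) were at 2.09 and 0 CPM in newborn sums, 170.1 and 45.7 in the young and 11.5 and 26.8 in the old sums, and Csf1r made 160.3 CPM of the highest value. Summed mural markers were at 14.7 and 95.8 CPM in newborn cells, 3.67 and 0 in the young and 4.62 and 10.8 in the old cells, nearly all of it Acta2. Summed endothelial markers (4 genes) ran the other way, from 23.5 and 5.65 CPM in newborn sums to 82.0 and 44.5 in the young and 74.3 and 63.2 in the old sums, mostly Plvap. Summed epithelial markers (5 genes) stood at 33.7 and 18.9, 43.6 and 47.3, and 70.9 and 57.1 CPM, mostly Krt10. The immune, endothelial and epithelial lists were thus higher in every adult sum than in every newborn sum. The part of these lists in the results was not tested.

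Col6a1 encodes the alpha1 chain. Newborn sums held 1586 and 1342 CPM in experiments 1 and 2, young sums 451 and 471, and old sums 315 and 297. The 3 ages did not overlap. The means were 1464 ± 172 CPM in newborn cells, 461 ± 14.2 in those of young and 306 ± 13.1 in those of old mice (SD, n = 2). Col6a1 was thus 3.17-fold higher in newborn than in young cells and 4.79-fold higher than in old cells, and 1.51-fold higher in young than in old cells. In the quasi-likelihood test of edgeR over 16684 genes, Col6a1 fell by 1.67 ± 0.19 on the log2 scale from newborn to young (SE, adjusted p = 0.0437) and fell by 2.26 ± 0.20 from newborn to old (adjusted p = 0.0194). The step from young to old, a log2 fold change of -0.59 ± 0.19, did not pass (adjusted p = 0.910, unadjusted p = 0.0237). Fitted with the experiment as a block, Col6a1 did not pass from newborn to young (adjusted p = 0.0800) or from newborn to old (adjusted p = 0.0511).

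Col6a2 encodes the alpha2 chain. Its level was 680.3 and 798 CPM in newborn sums, 198 and 140.3 in the young and 117 and 58.6 in the old sums. Here too no sum of an older age reached the sums of a younger one. Mean levels were 739 ± 83.3, 169 ± 40.5 and 87.7 ± 41.0 CPM (SD, n = 2), so newborn cells were 4.38-fold above young and 8.43-fold above old cells. Col6a2 did not pass the edgeR test in any comparison, with log2 fold changes of -2.13 ± 0.41 from newborn to young (adjusted p = 0.142), -3.08 ± 0.43 from newborn to old (adjusted p = 0.0677) and -0.95 ± 0.40 from young to old (adjusted p = 0.910). The old sums differed more from each other for this gene than for Col6a1.

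Col6a3 encodes the large alpha3 chain, which carries most of the von Willebrand factor A domains of the molecule. It stood at 855 and 806 CPM in newborn sums, 112 and 173 in those of young and 93.4 and 69.7 in those of old mice. The ages again did not overlap, although the lower young sum lay close to the higher old sum. The means were 830.4 ± 34.6, 142 ± 43.3 and 81.6 ± 16.7 CPM (SD, n = 2), and newborn cells were 5.84-fold above young and 10.2-fold above old cells. Col6a3 fell by 3.35 ± 0.33 on the log2 scale from newborn to old (edgeR adjusted p = 0.0284), and with the experiment as a block this call was lost (adjusted p = 0.0902). From newborn to young the log2 fold change was -2.55 ± 0.31 and narrowly missed the threshold (adjusted p = 0.0537). With the 1 cell of each sum that held the most Col6a3 reads left out, a setting chosen after seeing the data, this comparison passed, at -2.69 ± 0.31 (adjusted p = 0.0454). The young to old difference, -0.80 ± 0.30, did not pass (adjusted p = 0.910).

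**Figure D1:**
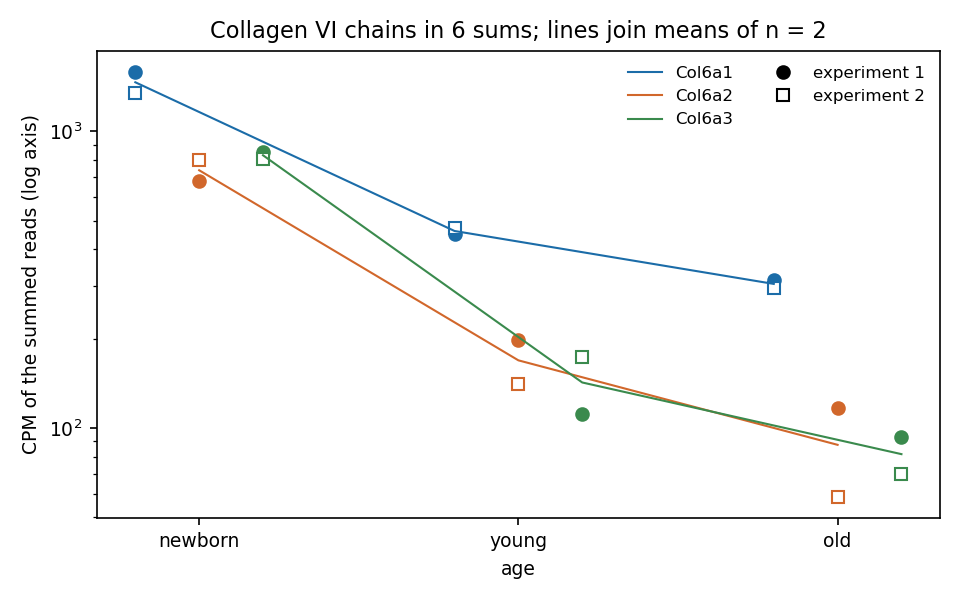
Level of Col6a1, Col6a2 and Col6a3 in CPM of the summed reads (vertical log axis) by age; filled circles are sums of experiment 1, open squares sums of experiment 2, and lines join the means of n = 2 sums. Each chain is highest in newborn cells, and for Col6a1 the order runs from 1586 and 1342 CPM in newborn to 315 and 297 in old cells.

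Counted over the members, 4 of 5 entered the edgeR test. From newborn to young 1 passed, in the lower direction, where 0.0599% of all tested genes passed lower and 0.779% in either direction. From newborn to old 2 passed lower, where 0.138% of all genes did so. From young to old 0 passed by edgeR, as for every other gene (0.0% of 16684). At an unadjusted p under 0.05, Col6a1 and Col6a3 were lower in that comparison, where 3.03% of all genes were. DESeq2 called Col6a1 lower from young to old (adjusted p = 0.00256), where it called 3.89% of all genes lower. It called Col6a1, Col6a2 and Col6a3 lower from newborn to young (6.07% of all genes) and from newborn to old (8.34%). Col6a6 also passed that p from young to old, and DESeq2 in both comparisons with old cells. It entered the test only through its newborn and young reads, so these calls are not counted as results. With any 1 of the 6 sums left out, edgeR called 0 members in each comparison. From newborn to young, other settings of the closing section called 0 to 3 members, with a background of 0.00599% with the experiment as a block, 0.0875% with no filter on low counts, 0.0719% with no scaling factor, 0.318% in thinned cells and 6.33% with limma on per-cell means. From newborn to old the block called 0 members, where 0.03% of all genes were lower. Both older sums lay below both younger sums for Col6a1, Col6a2 and Col6a3 in each comparison. That pattern held for 25.1% of all tested genes from newborn to young, 15.9% from young to old and 25.7% from newborn to old.

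The plates give a finer view of the same cells, since each of the 9 plates held all 3 ages. In CPM by library size alone, newborn cells lay above young and above old cells on 9 of 9 plates for Col6a1, Col6a2 and Col6a3. Young cells lay above old cells on 9 of 9 plates for Col6a1, 8 of 9 for Col6a2 and 6 of 9 for Col6a3. Col6a1 ranged over plates from 1476 to 2106 CPM in newborn cells, 265 to 642 in the young and 149 to 385 in the old cells. Col6a3 ranged from 618 to 1407 in newborn cells, 32.8 to 235 in those of young and 5.56 to 199 in those of old mice, so its young and old plates overlapped widely. Plates of 1 experiment may share mice and are no replicates of an age.

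Col6a5 encodes an alpha3-like chain. No read of it was counted among 735 cells. The upper limit on the share of positive cells is then 0.408% (3 cells of the total, counting error only). Col6a6, the other alpha3-like chain in the list, had reads in 11 cells. These were 4 and 3 newborn and 2 and 2 young cells of experiments 1 and 2, and none of 126 and 114 old cells. The sums stood at 5.13 and 5.91 CPM in newborn cells, 13.8 and 9.68 in the young and 0 in the old cells. Single cells held 84 to 1696 Col6a6 reads, so the reads came from few cells at clear levels. In young cells of experiment 1, 1 of the 2 positive cells gave 80.7% of the reads. The share was 2.53% (95% exact Clopper-Pearson interval 0.694 to 6.35%) and 3.30% (0.685 to 9.33%) in newborn, and 1.41% (0.171 to 5.00%) and 1.92% (0.234 to 6.77%) in young cells. A count of 0 allows up to 2.38% and 2.63% in old cells (3 cells of the total; the exact intervals reach to 2.89 and 3.18%), so a difference between young and old was not detectable with this number of cells. Col6a6 entered the edgeR test through its newborn and young reads and did not pass in any comparison (adjusted p = 0.823 from newborn to young, 0.906 from young to old and 0.105 from newborn to old). All 11 cells with Col6a6 also held Col6a1 and Col6a3 reads, and 10 held Col6a2 reads. Of all newborn cells, 91.8 and 97.8% held Col6a1, 90.5 and 98.9% Col6a2 and 75.9 and 80.2% Col6a3. Of all young cells the shares were 46.5 and 58.7%, 36.6 and 45.2%, and 19.7 and 30.8%. All 11 cells with Col6a6 held Col1a1 and Dcn reads, as did 99.4 to 100% of cells in each newborn and young group. Of markers of other lineages, 4 of the 11 held 48 to 208 reads of the keratin gene Krt10, 2 held 56 and 170 reads of the endothelial gene Plvap, and none held reads of Csf1r, Rgs5 or Sox10. Over the newborn and young groups, Krt10 was read in 15.4 to 44.2% of all cells and Plvap in 8.79 to 29.8%.

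Per length the chains can be set against each other, provided that reads cover the transcripts evenly and the counted exons are all in use. Neither was checked here. Union exon length (all annotated exons merged) was 4380 bases for Col6a1, 8326 for Col6a2 and 11963 for Col6a3, and coding length 3075, 3395 and 9863. Per kb of union exon length, Col6a1 stood at 334 ± 39.3 CPM in newborn cells, 105 ± 3.25 in those of young and 69.8 ± 2.99 in those of old mice (SD, n = 2). Col6a2 stood at 88.8 ± 10.0, 20.3 ± 4.87 and 10.5 ± 4.93, and Col6a3 at 69.4 ± 2.89, 11.9 ± 3.62 and 6.82 ± 1.40. The order at every age was Col6a1, Col6a2, Col6a3, then Col6a6 at 0.602 ± 0.0602 in newborn and 1.28 ± 0.317 in young cells. The sums of Col6a2 and Col6a3 per kb did not overlap in newborn and young cells and did in old cells. Per kb of coding sequence the order was the same, with Col6a2 at 218 ± 24.5, 49.8 ± 11.9 and 25.8 ± 12.1 and Col6a3 at 84.2 ± 3.51, 14.4 ± 4.39 and 8.27 ± 1.69. The gap between Col6a2 and Col6a3 thus depended on which length was used.

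The ratio of chains does not depend on library scaling. Per kb of union exon length, the ratio of Col6a3 to Col6a1 was 0.197 and 0.220 in newborn sums, 0.0906 and 0.134 in the young and 0.108 and 0.0861 in the old sums. Newborn sums lay above all adult sums, and young and old sums overlapped. By plate this order did not always hold. The young ratio was above the newborn one on plate P2143 (0.301 against 0.200). The old ratio was above it on plate P1964 (0.215 against 0.202), and on the other plates the newborn ratio was the highest. The ratio of Col6a2 to Col6a1 was 0.226 and 0.313 in newborn sums, 0.230 and 0.157 in those of young and 0.195 and 0.104 in those of old mice, and newborn and young overlapped. For Col6a3 to Col6a2 it was 0.875 and 0.703, 0.393 and 0.858, and 0.557 and 0.828, and all 3 ages overlapped. With 2 sums against 2, an exact permutation test cannot go below p = 0.333 (two-sided), and the ratios were given no other test. Of the summed reads per kb of these 3 chains, Col6a1 made 70.3 and 65.2% in newborn cells, 75.7 and 77.5% in the young and 76.7 and 84.0% in the old cells.

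The ratios were also taken in single cells with at least 10 reads of both chains. The median Col6a3 to Col6a1 ratio over such cells was 0.193 and 0.254 in newborn cells (107 and 72 cells), 0.207 and 0.237 in those of young (18 and 24 cells) and 0.238 and 0.0760 in those of old mice (10 and 5 cells). The median Col6a2 to Col6a1 ratio was 0.242 and 0.289 in newborn cells (130 and 88 cells), 0.275 and 0.264 in the young (25 and 22 cells) and 0.286 and 0.192 in the old cells (18 and 7 cells). Cells with reads of both chains are a selected part of the adult cells, and the old medians rest on few of them.

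**Figure D2:**
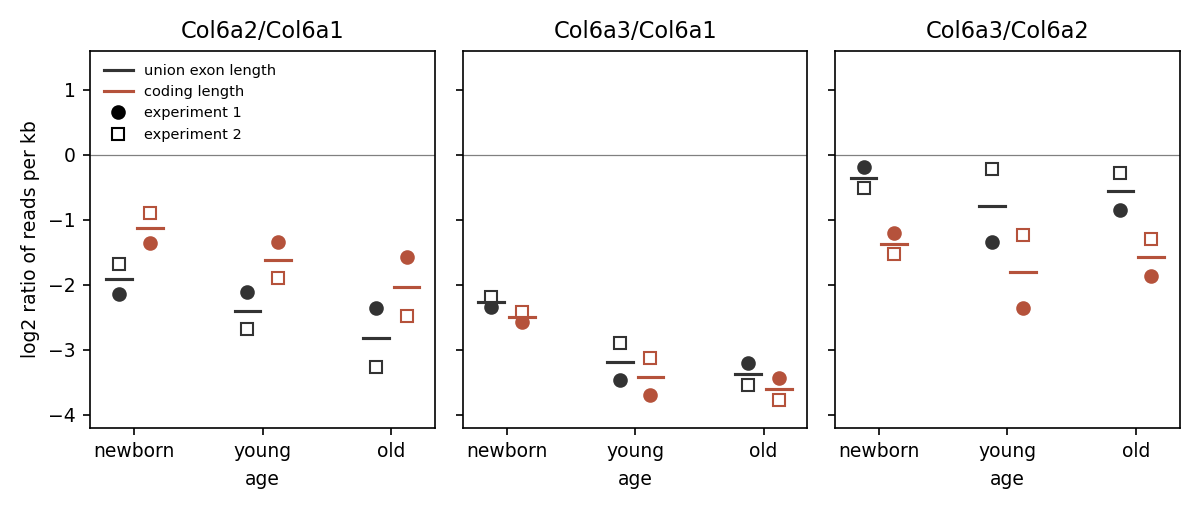
Log2 ratio of reads per kb between chains (vertical axis) by age, with union exon length in black and coding length in red; filled circles and open squares are the sums of experiments 1 and 2 and bars their means. The Col6a3 to Col6a1 sums of newborn cells lie above those of young and old cells with either length, while with coding length the Col6a2 to Col6a1 values move up and the Col6a3 to Col6a2 values move down.

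The share of cells with a read told apart newborn and adult cells for each chain. Reads of Col6a1 were present in 91.8 and 97.8% of newborn cells (exact Clopper-Pearson 95% intervals 86.3 to 95.5% and 92.3 to 99.7%), 46.5 and 58.7% of the young (38.1 to 55.0% and 48.6 to 68.2%) and 35.7 and 32.5% of the old cells (27.4 to 44.7% and 24.0 to 41.9%). Intervals cover the counting of cells only. Col6a2 was detected in 90.5 and 98.9% of newborn cells, 36.6 and 45.2% of the young and 25.4 and 23.7% of the old cells. Col6a3 was detected in 75.9 and 80.2% of newborn cells, 19.7 and 30.8% of the young and 20.6 and 11.4% of the old cells. Newborn shares lay above all adult shares for the 3 chains. Young shares lay above old shares for Col6a1 and Col6a2, while for Col6a3 the young share of experiment 1 (19.7%) was below the old one (20.6%), an order that turned in thinned cells (19.7 against 15.9%).

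Depth did not run in the same order as these shares. Median reads per cell were 995913 and 1196379 in newborn cells, 1154702 and 1209012.5 in the young and 1239852 and 1494972 in the old cells. With every cell thinned to 100000 reads, reads of Col6a1 remained in 90.5 and 97.8% of newborn cells, 45.1 and 55.8% of the young and 34.1 and 29.8% of the old cells. Col6a3 was then read in 74.7 and 79.1%, 19.7 and 27.9%, and 15.9 and 9.65%. Every thinned share of the 3 chains lay within the interval of the unthinned share. The number of genes with a read in thinned cells did move with age, at a median of 1802 and 2203 in newborn cells, 1646 and 2049.5 in the young and 1502.5 and 1704 in the old cells, and its part in the shares was not tested.

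**Figure D3:**
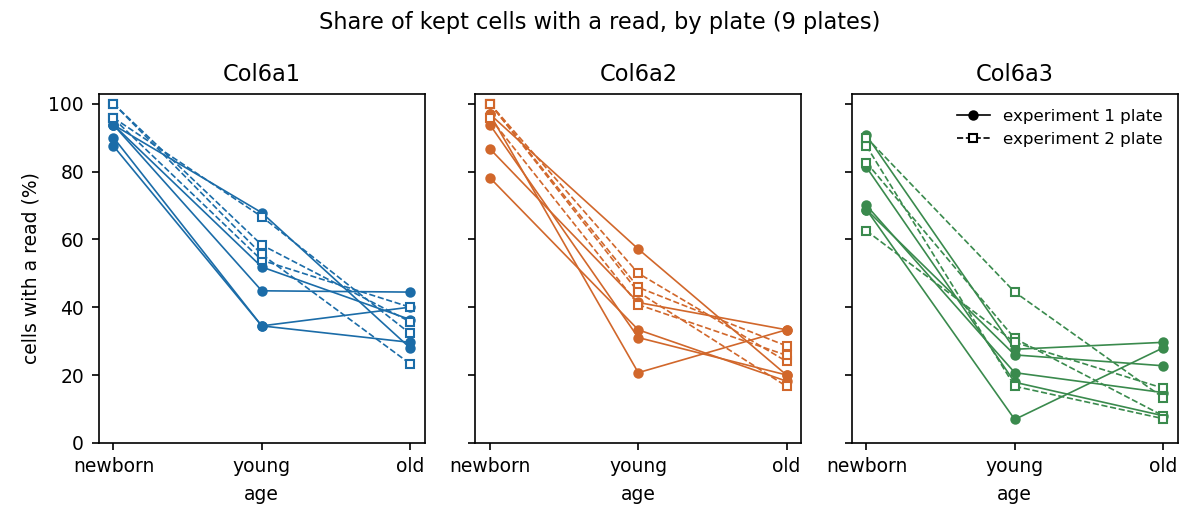
Share of kept cells with a read (vertical axis, percent) of Col6a1, Col6a2 and Col6a3 by age on each of 9 plates; filled circles with solid lines are plates of experiment 1 and open squares with dashed lines plates of experiment 2. For each chain the newborn share is above the young and the old share on 9 of 9 plates. Young and old shares mostly lie closer together. The exceptions are Col6a1 on plates P1963 (newborn 93.75, young 67.9 and old 28.0%) and P2135 (95.8, 66.7 and 32.3%).

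Cells that did hold a chain also held less of it in adults. Among cells with a read, the median level of Col6a1 was 1671.5 and 1706 CPM (by library size alone) in newborn cells, 787 and 573 in those of young and 680.0 and 697 in those of old mice. For Col6a2 it was 758 and 857 in newborn cells, 337 and 187 in the young and 370.1 and 238 in the old cells, and for Col6a3 940.1 and 1008, 447 and 332, and 229.8 and 274. Newborn medians lay above adult medians for each chain, and young and old medians overlapped for Col6a1 and Col6a2.

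The mean per cell can be split into the share of cells with a read and the mean level in those cells. For Col6a1 the newborn share was 1.97- and 1.67-fold the young share in experiments 1 and 2, and the newborn level in positive cells 2.14- and 2.31-fold the young one. For Col6a3 the share was 3.85- and 2.61-fold and the level 2.43- and 2.78-fold. Col6a2 had 2.47- and 2.19-fold in share and 1.80- and 3.11-fold in level. Set as young over old, the same split for Col6a1 gave 1.30- and 1.81-fold in share and 1.18- and 0.852-fold in level. Col6a2 gave 1.44- and 1.91-fold in share and 1.13- and 1.08-fold in level. For Col6a3 the values were 0.956- and 2.70-fold in share and 1.17- and 0.971-fold in level. The level in positive cells of Col6a1 and Col6a2 thus differed by less than the share did between young and old cells in both experiments, that of Col6a3 did so in experiment 2 but not in experiment 1, and in experiment 2 the level of Col6a1 was higher in old cells.

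Adult reads came from fewer cells than newborn reads, and fewer adult cells held a read at all. The fewest cells that together held 50% of the Col6a1 reads numbered 29 of 145 and 22 of 89 newborn cells with a read. They numbered 12 of 66 and 10 of 61 young and 10 of 45 and 6 of 37 old cells with a read. For Col6a3 the numbers were 22 of 120 and 17 of 73 newborn, 7 of 28 and 5 of 32 young and 3 of 26 and 2 of 13 old cells. Whether reads were more concentrated among the adult cells with a read was not tested. In old cells of experiment 2, the 5 cells with most Col6a3 reads gave 87.7% of them. Some adult cells reached newborn levels. The newborn median of Col6a1 in the same experiment was reached by 10.6 and 6.73% of young cells, and among old cells by 4.76 and 4.39%. That of Col6a3 was reached by 3.52 and 4.81% of young cells, and among old cells by 4.76 and 2.63%.

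**Figure D4:**
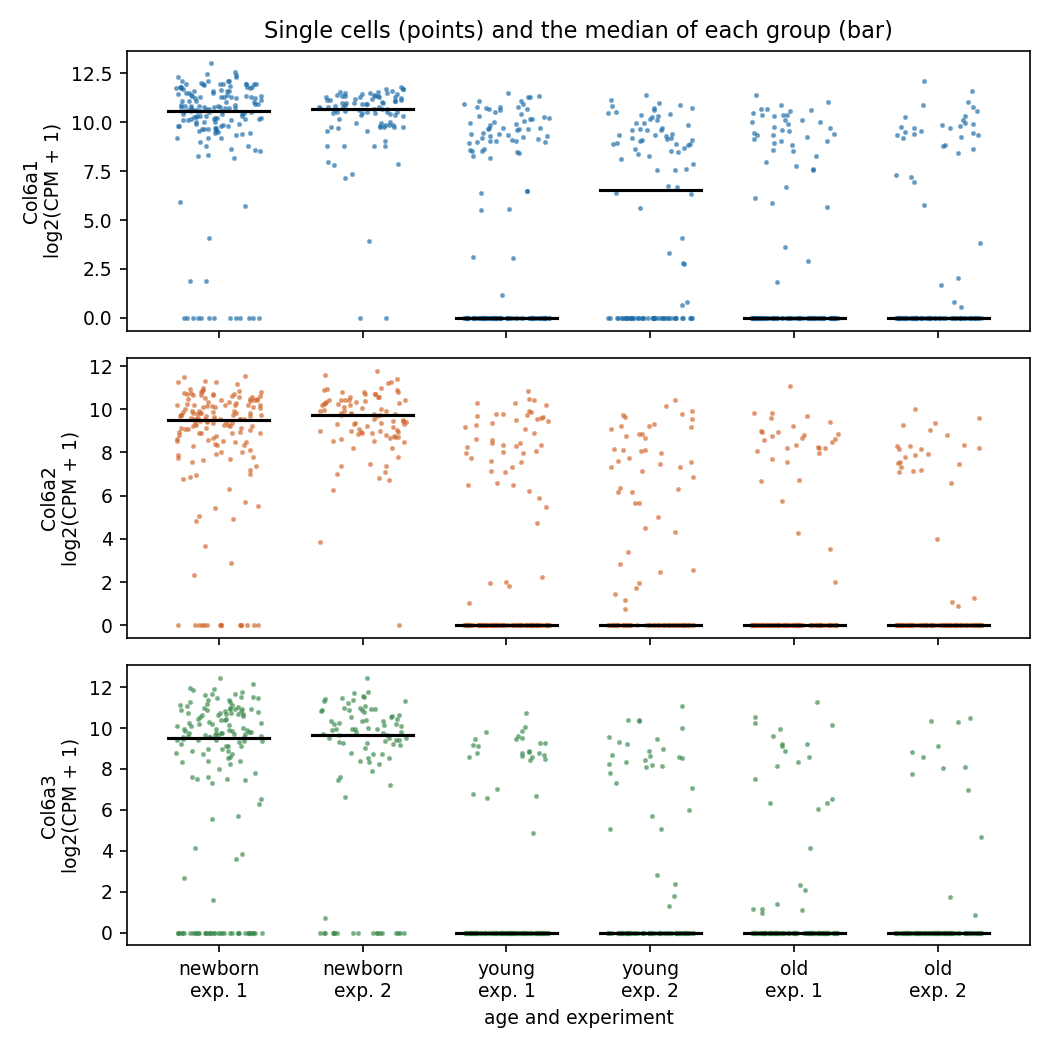
Log2(CPM + 1) of Col6a1, Col6a2 and Col6a3 (vertical axes) in each kept cell of the 6 groups of age and experiment; points are cells, spread sideways at random, and bars mark the median of each group. Adult groups hold many cells at 0 beside cells at high values, and Col6a1 was read in 46.5 and 58.7% of young cells. Most newborn cells lie at high values, as with Col6a1 in 91.8 and 97.8% of newborn cells.

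The usual molecule is built from all 3 chains, and most newborn cells held reads of all 3. Reads of Col6a1, Col6a2 and Col6a3 together were found in 65.2 and 80.2% of newborn cells, 6.34 and 13.5% of the young and 3.97 and 1.75% of the old cells. The product of the single shares was 63.1 and 77.6% in newborn cells, 3.36 and 8.16% in those of young and 1.87 and 0.877% in those of old mice. Each observed value was above its product. Cells of a group also differ in the number of genes read, and the part of this in the joint shares was not tested. In counts, the old cells with all 3 chains were 5 and 2. In cells thinned to 100000 reads, the share with all 3 chains was 62.0 and 79.1% for newborn, 5.63 and 7.69% for young and 3.97 and 0.877% for old cells, so the young and the old value of experiment 2 fell by more than 1.5 times. Cells with no read of any of the 3 chains made up 0.633 and 0% of newborn cells, 34.5 and 21.2% of the young and 43.7 and 49.1% of the old cells. A lack of reads here does not show absence of the chain, since a transcript can be missed in a single cell. Among old cells with exactly 1 chain, Col6a1 was the chain in 20 of 44 and 23 of 41 cells.

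**Figure D5:**
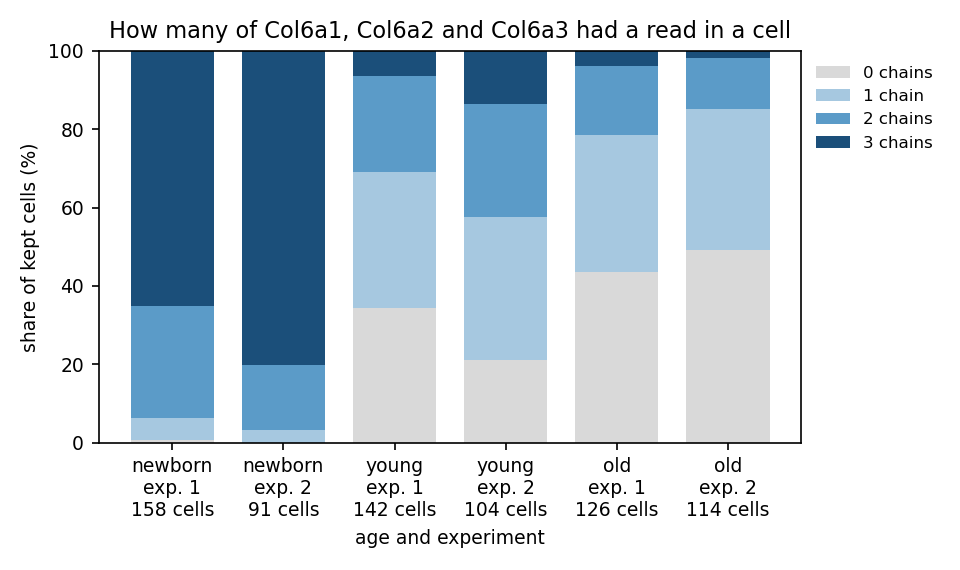
Share of kept cells (vertical axis, percent) with a read of 0, 1, 2 or 3 of Col6a1, Col6a2 and Col6a3, stacked for each age and experiment. Cells with all 3 chains make 65.2 and 80.2% of newborn and 3.97 and 1.75% of old cells.

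Within a group the chains were only weakly correlated across cells. Spearman correlations of log2(CPM + 1) across cells of a group, which share plates and differ in depth, ran from 0.0166 to 0.288 for Col6a1 with Col6a2, 0.119 to 0.344 for Col6a1 with Col6a3 and -0.00537 to 0.163 for Col6a2 with Col6a3 in the 6 groups of 91 to 158 cells. Thinned cells gave means over the 6 groups of 0.128, 0.224 and 0.0847, against 0.131, 0.222 and 0.0812 without thinning. In sparse counts such weak values are no finding. The mean of the 3 chains correlated more with the number of genes read in newborn cells (0.403 and 0.367) than in old cells (0.134 and -0.0658).

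By the same measure, the genes most like the 3 chains among 1402 genes with reads in 30% or more of each group's cells were Lgals1 (mean Spearman 0.151 over the 6 groups), Slc39a1 (0.148), Ifi27 (0.145), Ranbp1 (0.136), Actb (0.134), Gm6382 (0.132), Lmna (0.131) and Col3a1 (0.130), against a median of 0.0268 for all candidates. These are weak values from the top of a ranking of 1402. The lowest value over the groups was negative for Ifi27 (-0.0449), Ranbp1 (-0.00582), Gm6382 (-0.0206) and Col3a1 (-0.149), and positive for the other named genes. With thinned cells, which are the same cells at lower depth, 4 of these 8 stayed among the first 8. The lowest of all 1402 was Dcn at -0.270, negative in all 6 groups (-0.345 to -0.148). Dcn stood at 13909 to 17367 CPM in newborn and 104174 to 116229 CPM in adult sums. In newborn cells, where Dlk1 was read in 35.4 and 34.1% of cells, its correlation with the chains was -0.193 and -0.115, and that of the cycling gene Mki67 0.0225 and 0.152. Gpx3 gave 0.0695 and -0.106 in newborn groups, 0.0151 and 0.202 in the young and -0.106 and -0.211 in the old ones, and Col1a1 -0.0540 and -0.155, 0.145 and 0.0108, and 0.238 and 0.258. Both changed sign between groups.

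Genes that act with collagen VI were followed in the same fit, by lists chosen for known or proposed roles. Of 12 receptors and receptor-like genes, 11 were tested and 0 passed edgeR in any comparison. At an unadjusted p under 0.05 the counts were 2 lower and 2 higher from newborn to young, 0 and 1 from young to old, and 1 and 3 from newborn to old, and DESeq2 called 2 and 3, 0 and 1, and 1 and 3. Of all tested genes 13.3, 4.85 and 15.2% were below that p in either direction, and DESeq2 called 14.1, 6.28 and 17.0%. Cspg4, at 0 CPM in both young sums, was among the genes lower from newborn to young and was the gene higher from young to old. Itga2, at 0 CPM in both newborn sums, was among the genes higher from newborn to old. Both entered the test only through the ages where they were read, so their part in these counts is not a result. The median log2 fold change from newborn to old was -0.13, against -0.08 over all genes. Antxr2, a receptor through which collagen VI is cleared, was at 42.0 and 65.0 CPM in newborn cells, 216 and 234 in those of young and 168 and 269 in those of old mice, a log2 fold change of 2.03 from newborn to old (adjusted p = 0.110). Its relative Antxr1 was at 101.5 and 101.4, 201 and 251, and 300.3 and 201 CPM (1.31, adjusted p = 0.158). Cspg4, the NG2 proteoglycan that binds collagen VI, was at 6.65 and 13.2 CPM in newborn cells, 0 and 0 in the young and 0.190 and 0.445 in the old cells. The integrin genes Itga1 and Itga2 and the adhesion gene Mcam were at most at 12.9 CPM in any sum.

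Matrix partners of collagen VI were 25 genes, of which 23 were tested. From newborn to young 1 passed lower and 2 higher, and from newborn to old 4 lower and 2 higher, where 0.779% and 0.935% of all genes passed. From young to old 0 passed by edgeR, while 9 were lower and 0 higher at an unadjusted p under 0.05 and DESeq2 called 8 lower. Of all tested genes 3.03% were lower at that p, and DESeq2 called 3.89% lower. Most of the 9 were collagen genes of the list, and its small proteoglycans were not among them. The list's median log2 fold change was 0.24 from newborn to young (-0.18 without a scaling factor), -0.77 from young to old and -0.91 from newborn to old, against -0.07, 0.0 and -0.08 over all genes. Dcn, the small proteoglycan decorin that binds collagen VI, rose from newborn to young by a log2 fold change of 2.79 ± 0.17 (edgeR adjusted p = 0.00990), and Tnxb, tenascin X, rose from 0.0872 and 0.112 CPM in newborn to 36.7 and 18.6 CPM in young cells (adjusted p = 0.0464). Mfap2, a microfibril protein gene, fell by 1.82 ± 0.21 on the log2 scale from newborn to young (adjusted p = 0.0464), close to the size seen for Col6a1.

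The fibrillar collagens were followed beside them. Col3a1 was at 26593 and 23120 CPM in newborn sums, 19845 and 18477 in those of young and 3613 and 3269.8 in those of old mice, and it fell by 2.85 ± 0.16 on the log2 scale from newborn to old (edgeR adjusted p = 0.00784). Its log2 fold change from newborn to young was -0.38 ± 0.15 (adjusted p = 0.395), against -1.67 ± 0.19 for Col6a1. Col1a1, a chain of the main fibre collagen, had log2 fold changes of 0.70 ± 0.35 from newborn to young (adjusted p = 0.489) and -2.87 ± 0.37 from young to old (adjusted p = 0.759). Col1a2 had 1.05 ± 0.23 (adjusted p = 0.177) and -2.14 ± 0.24 (adjusted p = 0.727). Col5a1 and Col5a2, which encode the fibril-nucleating collagen V, had log2 fold changes of -2.44 ± 0.23 (adjusted p = 0.0260) and -2.48 ± 0.25 (adjusted p = 0.0293) from newborn to old, and both passed. Their newborn to young values were -1.23 ± 0.23 (adjusted p = 0.121) and -0.67 ± 0.24 (adjusted p = 0.322), and from young to old -1.21 ± 0.23 (adjusted p = 0.906) and -1.81 ± 0.24 (adjusted p = 0.780). Young Col1a1 and Col1a2 sums lay above all newborn sums, whereas young sums of Col6a1, Col6a2, Col6a3, Col3a1, Col5a1 and Col5a2 lay below all newborn sums. The latter order held for 25.1% of all tested genes. Whether the course differed between these collagen genes was not tested.

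Genes that fold, modify, export or cut collagen chains numbered 20, all tested, and 0 passed edgeR in any comparison. At an unadjusted p under 0.05, 2 were lower and 2 higher from newborn to young, 4 and 0 from young to old and 5 and 1 from newborn to old, and DESeq2 called 2 and 3, 3 and 0, and 5 and 1. Over all tested genes, 13.3, 4.85 and 15.2% were past that p in either direction in these comparisons and DESeq2 called 14.1, 6.28 and 17.0%. P4ha3, at 0 CPM in all young and old sums, was among the lower genes in both comparisons with newborn cells. Plod2, at 0 CPM in both old sums, was among them in both comparisons with old cells. These genes entered the test only through the ages where they were read, so their part in these counts is not a result. The list's median log2 fold change was -0.14, -0.68 and -0.89, against -0.07, 0.0 and -0.08 over all genes. P3h1, a prolyl 3-hydroxylase, was at 163 and 177 CPM in newborn cells, 65.1 and 48.9 in the young and 38.3 and 13.0 in the old cells, lower at each later age without overlap, with a log2 fold change of -2.73 ± 0.59 from newborn to old (adjusted p = 0.152). Fkbp10, a prolyl isomerase of the endoplasmic reticulum, was at 179 and 238, 113 and 78.9, and 42.7 and 8.29 CPM (-3.03 ± 0.83, adjusted p = 0.212). The lysyl hydroxylase gene Plod2 had 12.3 and 38.3 CPM in newborn, 3.93 and 3.63 in young and 0 CPM in both old sums. P4ha3 was read in newborn sums only, at 3.62 and 11.8 CPM. P4ha2 was at 311 and 214, 383 and 269, and 175 and 133 CPM. The proteases Bmp1 and Mmp2 were highest in young sums, Bmp1 at 305 and 194 CPM against 78.4 and 121 in newborn, and Mmp2 at 1147 and 1549 CPM against 477 and 716.

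Of 8 other collagens with von Willebrand factor A domains, 7 had an entry in the files and 3 were tested. Col7a1, the anchoring fibril collagen, was at 242 and 212 CPM in newborn sums, 2.22 and 3.49 in those of young and 7.34 and 8.04 in those of old mice. It fell by 6.31 ± 0.41 on the log2 scale from newborn to young (edgeR adjusted p = 0.0105) and fell by 4.88 ± 0.38 from newborn to old (adjusted p = 0.0164). Col12a1 was at 362 and 311 CPM in newborn sums, 15.0 and 8.34 in the young and 0.0271 and 31.6 in the old sums (log2 fold change -4.85 ± 2.46 from newborn to young, adjusted p = 0.500). Col14a1 was at 85.2 and 34.0, 112 and 30.8, and 0 and 6.91 CPM, with sums of 1 age far apart. Col6a4, a further alpha3-like gene outside the 5 members, had 927 reads in 1 newborn cell of experiment 1 and none elsewhere.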

How the data were processed

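For each plate the authors deposited a table of raw counts, genes by wells. Per the labels, cells were sorted singly and made into Smart-seq2 libraries, and the submitters' processing notes list FastQC and GRCm38. Which aligner and counter were used, and with which strand setting, is not given in the sources used here. Between 73.8 and 76.6% of nonzero counts were even in every table. Of 1049 labelled columns 5 had no value. By well correlation (0.994, against at most 0.430 for other plates), 2 pairs of tables held 1 plate each in 2 runs, and their counts were added, which left 861 wells on 9 plates. Cells were kept with at least 50000 reads, 1000 genes and at most 25% mitochondrial reads. The test on sums per age and experiment was that of edgeR 4.0.16 under R 4.3.3 (TMM, filterByExpr, robust quasi-likelihood fit, age only, Benjamini-Hochberg threshold 0.05, common coefficient of variation 1.13), tested on simulated data. Standard errors are the absolute log2 fold change over the square root of F. DESeq2 1.42.0, limma 3.58.1 (pseudocount 1) and the settings in the closing section were alternatives. Symbols came from GENCODE M21 for 51633 of 51777 entries. The labels share experiment numbers across ages, and each plate held all 3 ages. Deviations of same-numbered sums correlated at -0.00017 to 0.0125 over the tested genes, and the main fit had no block. Such a correlation cannot show that single genes are unpaired. Every call of a member in the main fit was lost with the experiment as a block. Named list genes were those that passed in any comparison, and the 3 with the smallest p of a list and comparison where fewer than 3 passed. The members and lists were chosen with earlier results of these data known.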

Additional observations from a re-analysis of the deposited data

How the results depend on the processing

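With n = 2 sums per age the calls of single chains were unstable. Col6a1, Col6a2 and Col6a3 kept a negative log2 fold change in all 15 alternatives of each comparison. These alternatives rest on the same experiments, so they do not test the direction anew. By plate, young cells lay above old cells on 9 of 9 plates for Col6a1, 8 of 9 for Col6a2 and 6 of 9 for Col6a3. The numbers of genes and of members called moved with the method. From newborn to young 130 genes and 1 member were called, with a replicate block 25 and 0, with DESeq2 2358 and 3, with limma on per-cell means of log2(CPM + 1) 687 and 3, and with thinned cells 286 and 3. No filter on low counts and no scaling factor (added after seeing the data) each gave 2 members. From newborn to old 156 genes and 2 members were called, with the block 51 and 0, with DESeq2 2828 and 4, with limma 988 and with thinned cells 321 genes. From young to old 0 genes and 0 members became 1047 and 2 with DESeq2, and 2 genes without the filter. In both comparisons with old cells 1 of the members DESeq2 called was Col6a6, which has 0 old reads. The causes were not tested.

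With the experiment as a replicate block, log2 fold changes hardly moved and the calls were lost: -1.66 for Col6a1 from newborn to young (adjusted p = 0.0800), -2.26 for Col6a1 (0.0511) and -3.35 for Col6a3 (0.0902) from newborn to old. Chains that missed the threshold passed elsewhere. From newborn to young, Col6a2 passed with DESeq2 (-2.13), limma (-5.89) and thinned cells (-2.01), and Col6a3 with DESeq2 (-2.55), no filter (-2.54), limma (-5.56), no scaling factor (-2.97), thinned cells (-2.58) and without the cell with most reads (-2.69, also added after seeing the data). From newborn to old, Col6a2 passed with DESeq2 (-3.09), no filter (-3.07), limma (-6.99) and thinned cells (-2.98). From young to old, Col6a1 passed with DESeq2 (-0.60). The per-cell log means of limma weigh cells at 0 and are on another scale. Dropping the scaling factor moved the median of all genes by -0.42 from newborn to young and -0.36 from newborn to old.

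Leaving out any 1 of the 6 sums, with the lone sum assumed to vary like the other ages, called 0 to 42 genes from newborn to young and 0 to 47 from newborn to old, and 0 members in each. Col6a1 then ranged from -1.78 to -1.54 from newborn to young and, from newborn to old, from -2.37 to -2.13, and Col6a3 from -3.56 to -3.15. Fewer samples are left in these fits by construction.

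Chain ratios (log2) moved with the length and with the summary. By coding length, Col6a2 to Col6a1 was -1.13, -1.61 and -2.03 in newborn, young and old cells (-1.91, -2.40 and -2.81 by union exon length). Col6a3 to Col6a1 was -2.49 in newborn cells (-2.26), and Col6a3 to Col6a2 was -1.37, -1.80 and -1.57 (-0.35, -0.78 and -0.56). As a median over cells, Col6a2 to Col6a1 was -1.89 in young and -2.09 in old cells, Col6a3 to Col6a1 -2.18 (young) and -2.89 (old), and Col6a3 to Col6a2 in young cells turned positive, at 0.14. Shares of cells with a read of a given chain and correlations between chains moved by less than their error when cells were thinned. Shares of Col6a5 and Col6a6 are limited by the number of cells.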
